A study of Mus musculus with 21 samples.

Results

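Primary granule genes encode the proteins that promyelocytes, the early committed precursors of neutrophils, pack into their first granules. The 6 genes described here under that name are Mpo, Elane, Prtn3, Ctsg, Fcnb and Ms4a3, chosen by name and found by their Ensembl gene ID among the 45706 genes counted. Of these, Ms4a3 encodes a membrane protein whose expression marks progenitors, and it is not listed here as a granule protein. Each ID occurred once in each library, and all 6 passed the filter on low counts. The genes were followed in 21 RNA-seq libraries from a mouse model of juvenile myelomonocytic leukaemia, a childhood myeloproliferative disease that often carries activating mutations of PTPN11, the gene of the phosphatase SHP2. LSK cells (lineage marker negative, Sca1 and cKit positive, the stem and early progenitor compartment) were sorted from bone marrow (BM), and CD11b+ myeloid cells were enriched from BM and from spleen on magnetic columns.

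Each fraction held 2 libraries from MxCre mice, 2 from Ptpn11D61Y/+ mice and 3 from terminally ill MxCre;Ptpn11D61Y/+ mice, the stage called S3. MxCre mice carry a Cre recombinase under an interferon-inducible promoter and no mutant Ptpn11. Ptpn11D61Y/+ mice carry 1 mutant allele behind a Neo-Stop cassette and no Cre, so they are a control in which the mutant allele is meant to stay silent. In S3 mice both are present, and Cre removes the cassette. All mice, controls included, received poly I:C per the study's methods, which induces the promoter in any tissue that answers to interferon and not in blood cells alone, whereas the labels list no treatment. By their labels S3 LSK cells came from animals 540, 815 and 768, and both S3 CD11b+ fractions from animals 540, 815 and 640. Nothing in the labels says that the 2 control libraries of a group came from separate mice. In 2 groups sex-linked counts show that they were not repeats of 1 sample. Spleen CD11b+ Ptpn11D61Y/+ 1 and 2 had 4753 and 0 counts of Xist and 0 and 7901 of Y-linked genes. BM CD11b+ MxCre 1 and 2 had 0 and 2834 of Xist. In the other control groups the spread between the 2 samples may be technical. The main p-values rest on a spread estimated over all 21 libraries in 1 fit, so such technical spread enters them in part. Library totals ran from 34992610 to 104509425 counts, with a median of 69421661.

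Azurophil granule proteins are made in a short window. Promyelocytes transcribe the genes strongly, and the genes are shut off when the cell becomes a myelocyte and starts on secondary granule genes such as Ltf and Ngp, so mature neutrophils hold the proteins but little of the RNA. Mpo encodes myeloperoxidase, which makes hypochlorous acid from hydrogen peroxide. Elane, Prtn3 and Ctsg encode the serine proteases neutrophil elastase, proteinase 3 and cathepsin G, which digest microbial and matrix proteins. Fcnb encodes ficolin B, a lectin that binds microbial sugars, and Ms4a3 encodes a membrane protein whose expression marks granulocyte and monocyte progenitors. Transcripts of these genes in a bulk fraction are therefore usually read as coming from its immature granulocyte precursors, and here fewer such cells cannot be told apart from less RNA per cell.

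On the GRCm38 build the genes lie on 5 chromosomes, Elane and Prtn3 being neighbours. Mpo (ENSMUSG00000009350) lies at chr11:87793581-87804413 on the plus strand, and an antisense gene, Gm11505, overlaps its exons. Elane (ENSMUSG00000020125) lies at chr10:79886247-79888215 and Prtn3 (ENSMUSG00000057729) at chr10:79874476-79883174, both on the plus strand and 3073 bp apart. Prtn3 exons overlap those of Plppr3 on the opposite strand. Ctsg (ENSMUSG00000040314) lies at chr14:56099881-56102574, Fcnb (ENSMUSG00000026835) at chr2:28076378-28084885 and Ms4a3 (ENSMUSG00000024681) at chr19:11629496-11640851, all on the minus strand. The libraries were made with a stranded kit per the study's methods. Whether the counting used strand is not given in the sources used here, so reads of Mpo and Gm11505, or of Prtn3 and Plppr3, may share a count.

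The stretches just upstream of the 6 starts are shown because the genes vary together across most of these libraries. They were read from the RefSeq promoter table (GRCm38.p6) 5′ to 3′ on the strand of the gene, up to 250 bases before the RefSeq start, with bases inside an annotated exon left out. The Prtn3 stretch lies within the longer Ensembl gene, which starts further upstream. The RefSeq starts of Mpo, Elane and Fcnb also lie inside the Ensembl genes, so 47, 185 and 243 of their 250 bases are printed. Capitals mark GGAAGT, a core bound by ETS-family factors such as PU.1.
Mpo, chr11:87793534-87793580, plus strand: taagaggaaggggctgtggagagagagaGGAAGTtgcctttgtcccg
Elane, chr10:79886062-79886246, plus strand: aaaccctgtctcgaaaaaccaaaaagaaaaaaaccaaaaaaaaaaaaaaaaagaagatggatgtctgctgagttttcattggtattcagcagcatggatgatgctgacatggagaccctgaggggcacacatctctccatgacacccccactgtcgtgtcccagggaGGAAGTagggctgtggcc
Prtn3, chr10:79879417-79879613, plus strand: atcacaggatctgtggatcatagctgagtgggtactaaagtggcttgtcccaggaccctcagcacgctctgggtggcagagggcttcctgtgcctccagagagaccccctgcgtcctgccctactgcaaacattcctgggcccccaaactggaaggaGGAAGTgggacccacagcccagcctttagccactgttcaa
Ctsg, chr14:56102575-56102824, minus strand: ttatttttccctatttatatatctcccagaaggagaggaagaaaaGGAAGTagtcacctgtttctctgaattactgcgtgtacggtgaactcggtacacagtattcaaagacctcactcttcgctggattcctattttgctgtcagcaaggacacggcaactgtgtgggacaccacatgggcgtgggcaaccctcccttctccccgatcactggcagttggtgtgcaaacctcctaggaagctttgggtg
Fcnb, chr2:28084886-28085128, minus strand: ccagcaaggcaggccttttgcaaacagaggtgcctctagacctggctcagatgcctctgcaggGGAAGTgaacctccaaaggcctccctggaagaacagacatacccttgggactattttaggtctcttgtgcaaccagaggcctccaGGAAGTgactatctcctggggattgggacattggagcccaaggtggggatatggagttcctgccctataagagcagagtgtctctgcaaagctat
Ms4a3, chr19:11640852-11641101, minus strand: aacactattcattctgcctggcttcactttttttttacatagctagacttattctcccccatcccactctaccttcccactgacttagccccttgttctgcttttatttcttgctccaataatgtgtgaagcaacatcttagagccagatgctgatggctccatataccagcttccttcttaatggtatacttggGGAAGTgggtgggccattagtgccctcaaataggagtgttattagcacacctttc

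In the full 250 bases before the RefSeq start, searched on both strands, GGAAGT was present at 6 of 6 genes, each time on the strand of the gene, against 19.7% of 32851 windows of the same length in the table. Counted from the RefSeq start and not from the Ensembl gene ends given above, it began 222 bases before Mpo, 83 before Elane, 93 before Prtn3, 205 before Ctsg, 55 before Ms4a3, and 187 and 102 before Fcnb. The motif was chosen after the sequences had been seen, so its count is a description. Among 10 secondary granule genes 5 held it. GAGGAAGT, a longer form that contains GGAAGT, was present at Mpo, Elane and Prtn3, at 3 of the 10 secondary granule genes and in 2.44% of all windows. TATAA was found at Elane, Prtn3 and Fcnb, 31, 32 and 37 bases before the RefSeq start, and at Ctsg on the other strand 236 bases before it, against 22.8% of windows. At Elane and Prtn3 it lies among the bases inside an annotated exon, which are not printed above. Of the motifs of 3 other factors that act in this lineage, AACGG (MYB) was present at Elane and Prtn3 (14.5% of windows), TTNNGNAA (C/EBP) at Fcnb and Ms4a3 (36.8%) and TGTGGT (RUNX) at Ctsg (14%). The C/EBP letters stood at 8 of the 10 secondary granule genes, and CCAAT at 3 of the 6 primary granule genes (Elane, Fcnb and Ms4a3) against 33.8% of windows. No library here measures binding at these sites.

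The fraction labels were checked against defining genes, given in CPM, which is a gene's count scaled to a common library size, here with TMM factors that set the bulk of genes equal between libraries. Cd34, a surface protein of progenitors, had 336 to 500 CPM in the 7 LSK libraries and at most 17.3 in the 14 CD11b+ libraries. Kit, the stem cell factor receptor, had 288 to 533 CPM in LSK against 4.78 to 73.2 in CD11b+ libraries. Itgam, which encodes CD11b, had 151 to 1665 CPM in CD11b+ libraries and 31.6 to 114 in LSK. The ranges did not overlap for any of the 3 genes, so the LSK and CD11b+ libraries matched their labels. The 3 genes do not tell BM from spleen CD11b+ cells.

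Several libraries stood apart from others of their group. BM CD11b+ MxCre 1 had a summed level of 10 macrophage genes of 20682 CPM, led by C1qa, against 627 in MxCre 2, and a summed level of 15 proliferation genes of 673 CPM against 5022. BM CD11b+ S3 640 held 14097 CPM of 10 mature neutrophil genes where the other 2 S3 libraries held 68787 and 71332. Spleen CD11b+ S3 640 held 3684 CPM of proliferation genes against 1212 and 1376 in the other 2. In 3 libraries (BM CD11b+ MxCre 2, BM CD11b+ S3 540 and spleen CD11b+ S3 540) both Xist and Y-linked genes had more than 100 counts, as in none of the other 18, and whether these 3 hold RNA of more than 1 mouse was not tested. LSK S3 540 had 1 count of Xist and 15172 of Y-linked genes, like the 4 control LSK libraries, whereas LSK S3 815 and 768 had 39460 and 88850 of Xist and 0 of Y-linked genes, so in these 2 libraries sex and genotype cannot be told apart. Under the same animal number 540, BM CD11b+ had 2780 counts of Xist and 958 of Y-linked genes, and spleen CD11b+ 712 and 4225. Spleen CD11b+ Ptpn11D61Y/+ 1 had 4753 counts of Xist and 0 of Y-linked genes, whereas the LSK and BM libraries of the same number had 17 and 1 of Xist and 21885 and 6602 of Y-linked genes. Number 1 of Ptpn11D61Y/+ thus did not follow 1 animal across fractions. Where a direction or call of the 6 genes turned on these libraries, values or ranges over omissions are given.

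Ptpn11 itself, the targeted gene, had 111 and 116 CPM in MxCre LSK, 64.1 and 60.5 in Ptpn11D61Y/+ LSK and 153, 140 and 152 in S3 LSK. In BM CD11b+ the S3 libraries had 62.7, 26.3 and 119 CPM against 22.0 and 42.8 in MxCre. In spleen CD11b+ they had 91.9, 59.8 and 140 against 14.6 and 38.2. In none of the 3 fractions did the gene pass the test between S3 and MxCre (log2 fold changes of 0.39, 1.09 and 1.88, adjusted p = 1, 0.344 and 0.0665, edgeR). The counts do not show which allele was transcribed.

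By their medians, 5 of the 6 primary granule genes were lowest in spleen CD11b+ cells and Fcnb was lowest in LSK. The 6 genes together took 0.243 to 0.302% of all counts in MxCre LSK, 0.390 to 0.412% in Ptpn11D61Y/+ LSK and 0.624 to 0.880% in S3 LSK. In BM CD11b+ libraries they took 0.0555 to 0.421%, and in spleen CD11b+ libraries 0.00582 to 0.0606%. The median level of Mpo over the 7 libraries of a fraction was 1567 CPM in LSK, 1377 in BM CD11b+ and 59.8 in spleen CD11b+. Ctsg followed the same order, with 214, 104 and 6.34 CPM. Elane, Prtn3 and Ms4a3 had their highest median in BM CD11b+ (558, 828 and 187 CPM), a lower one in LSK (473, 441 and 66.1) and the lowest in spleen (46.8, 97.3 and 32.4). For Elane the first 2 changed places with library size alone, at 540 in BM CD11b+ and 679 in LSK. Fcnb was lowest in LSK, with a median of 40.3 CPM against 347 in BM CD11b+ and 113 in spleen CD11b+. These medians run over 3 genotypes, and the orders did not hold in each. In Ptpn11D61Y/+ Fcnb was lowest in spleen (13.6 and 21.7 CPM against 29.9 and 31.6 in LSK), and in S3 Elane lay higher in LSK than in BM CD11b+ (−0.31 for BM over LSK, not called). In MxCre Ms4a3 overlapped between spleen (28.4 and 40.1 CPM) and LSK (40.3 and 20.98).

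**Figure D1:**
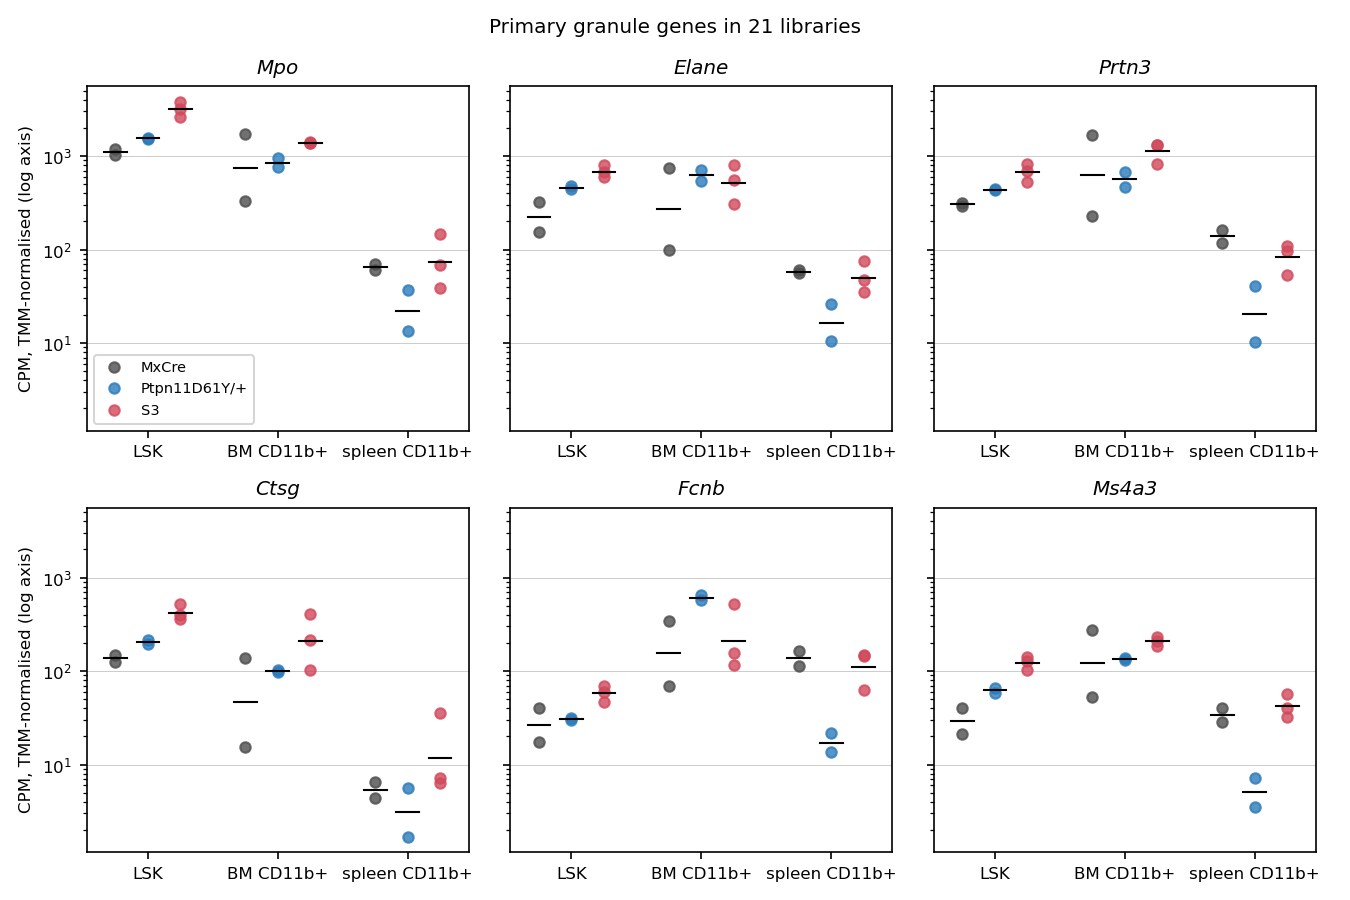
Level of each gene in CPM (log axis) in LSK, BM CD11b+ and spleen CD11b+ libraries, 1 point per library, with grey for MxCre, blue for Ptpn11D61Y/+ and red for S3, and a black line at the geometric mean of each group. The S3 points of LSK lie above both MxCre points for all 6 genes, the 2 MxCre points of BM CD11b+ lie far apart, and the Ptpn11D61Y/+ points of spleen are the lowest there for Mpo, Elane, Prtn3, Fcnb and Ms4a3.

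The spread within a fraction was wide in CD11b+ cells. Ctsg varied 26.2-fold between its highest and lowest BM CD11b+ library and 21.1-fold in spleen, Ms4a3 16.0-fold and Prtn3 15.8-fold in spleen. The lowest value of all, Ctsg in spleen CD11b+ Ptpn11D61Y/+ 1, still rested on 104 counts, and Ms4a3 in that library on 219, so counting error was small beside the spread between libraries.

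Compared per kilobase of exon, the genes did not keep 1 order across fractions. In LSK the medians were 481 CPM per kilobase for Elane, 458 for Mpo, 255 for Prtn3 and 207 for Ctsg, with Ms4a3 at 35.1 and Fcnb at 30.1. Elane and Mpo changed places between LSK genotypes, and so did Prtn3 and Ctsg and, at the bottom, Ms4a3 and Fcnb. Prtn3 and Elane changed places between the 2 MxCre LSK libraries. In BM CD11b+ the medians were 567 for Elane, 478 for Prtn3, 402 for Mpo, 259 for Fcnb, 101 for Ctsg and 99.2 for Ms4a3. In spleen CD11b+ Fcnb led with 84.1, followed by Prtn3 with 56.2, Elane with 47.6, Mpo with 17.5, Ms4a3 with 17.2 and Ctsg with 6.14. Among the S3 animals most neighbours in these CD11b+ orders changed places.

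The make-up of the pool shifted accordingly. Mpo gave 31.4 to 38.8% of the summed CPM per kilobase of the 6 genes in the LSK libraries, 13.5 to 23.4% in BM CD11b+ and 5.43 to 12.4% in spleen CD11b+. These 3 ranges did not overlap. Fcnb gave 1.46 to 2.86% in LSK, 4.91 to 26.4% in BM CD11b+ and 18.7 to 51.2% in spleen CD11b+, so only the 2 CD11b+ ranges overlapped. Ms4a3 gave 1.43 to 2.85%, 3.61 to 6.65% and 4.45 to 10.8% in the same order. Elane, between 17.1 and 35.2%, overlapped among all 3 fractions, as did Prtn3, between 12.8 and 42.7%. Ctsg gave 13.2 to 16.8% in LSK, 3.53 to 18.8% in BM and 1.66 to 9.61% in spleen. Its highest share in each CD11b+ fraction, 18.8 and 9.61%, belonged to the libraries of animal 640.

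**Figure D2:**
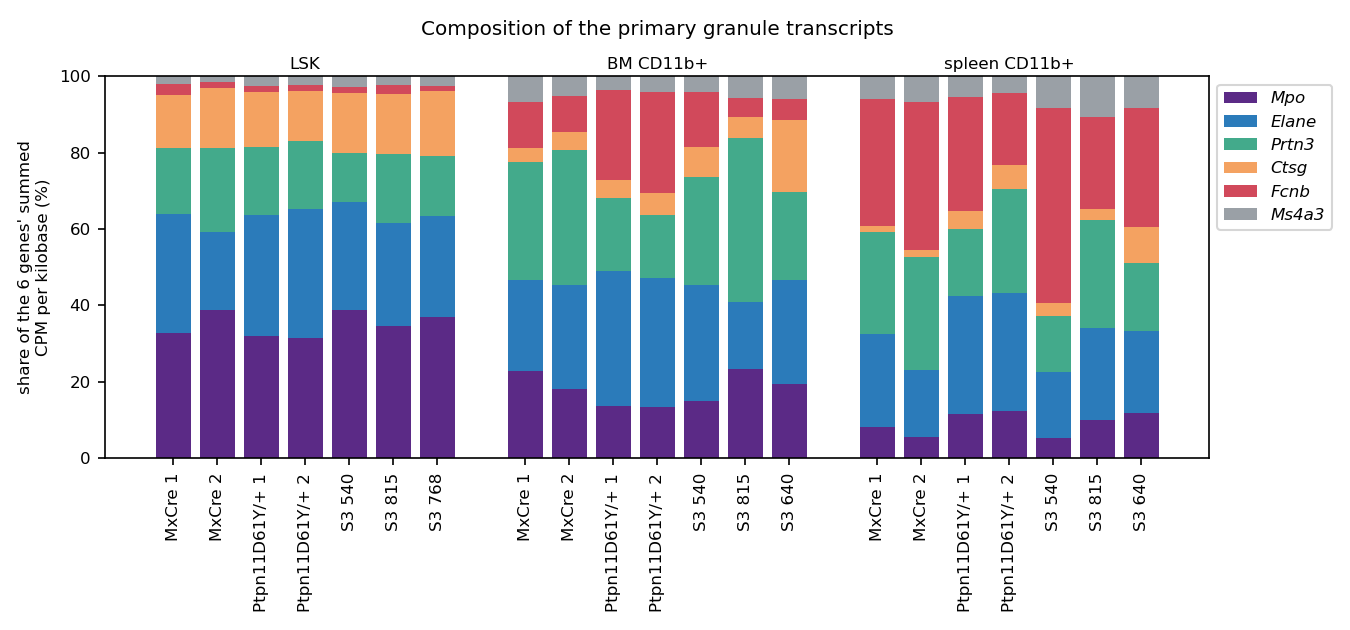
Share of each gene (percent, stacked to 100) in the summed CPM per kilobase of the 6 genes, 1 bar per library, grouped by fraction and labelled by genotype and replicate or animal. Mpo takes 31.4 to 38.8% in LSK and 5.43 to 12.4% in spleen CD11b+, while Fcnb takes 1.46 to 2.86% in LSK and 18.7 to 51.2% in spleen CD11b+.

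The first question of the design is how S3 mice differ from MxCre mice within a fraction. Fold changes, S3 over MxCre on the log2 scale, come with their standard error (SE), and a gene counted as changed when its Benjamini-Hochberg adjusted p over 19555 genes was under 0.05 in edgeR's quasi-likelihood test. In LSK cells all 6 genes lay higher in every S3 library than in both MxCre libraries, which was the case for 29.1% of all genes tested. None of the 6 passed the adjusted threshold there, at which 0.0307% of all genes did. The median log2 fold change of the 6 was 1.53 against 0.0061 over all genes.

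Ms4a3 showed the largest difference of the 6 in LSK. It had 40.3 and 20.98 CPM in MxCre, 66.1 and 58.8 in Ptpn11D61Y/+ and 129, 102 and 139.7 in S3. All 3 S3 libraries lay above all 4 controls. The log2 fold change over MxCre was 2.01 ± 0.538 (SE, unadjusted p = 0.00175, adjusted p = 0.496), and in DESeq2 it was 1.91 with an adjusted p of 0.0293. Mpo had 1178 and 1032 CPM in MxCre, 1567 and 1526 in Ptpn11D61Y/+ and 3192, 2624 and 3819 in S3. Here too the 3 genotypes formed separate ranges, with a log2 fold change of 1.54 ± 0.621 (SE, unadjusted p = 0.0246, adjusted p = 1).

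Of the 3 proteases, Ctsg had 149.8 and 126 CPM in MxCre, 214 and 193 in Ptpn11D61Y/+ and 395, 358 and 526 in S3 LSK. Elane had 324 and 156, 443 and 473, and 673, 591 and 794 CPM. Prtn3 had 315 and 294, 441 and 433, and 534, 696 and 824 CPM. In each of the 3, every S3 library exceeded every Ptpn11D61Y/+ library, and every Ptpn11D61Y/+ library exceeded every MxCre library. The share of all genes in this full order, which Mpo and Ms4a3 also showed, is not given here. In pairs, S3 lay wholly above MxCre for 29.1% of all genes and Ptpn11D61Y/+ wholly above MxCre for 28.3%. Their log2 fold changes, S3 over MxCre, were 1.63 ± 0.855, 1.52 ± 0.663 and 1.17 ± 0.654 (SE), each with an adjusted p of 1. Fcnb was the weakest of the 6, with 40.3 and 17.5 CPM in MxCre, 29.9 and 31.6 in Ptpn11D61Y/+ and 47.0, 69.6 and 60.4 in S3 (1.03 ± 0.668).

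The call in LSK depended on the tool and on the libraries in the fit. At an unadjusted p under 0.05, edgeR gave 3 of the 6 genes (Mpo, Elane and Ms4a3) and 777 genes in all. DESeq2 called 1 of the 6, Ms4a3, and 0.655% of genes. When the fit held the LSK libraries of MxCre and S3 alone, so that CD11b+ libraries no longer entered the estimate of the spread, 5 of 6 passed (adjusted p = 0.00642 for Mpo, 0.0424 for Elane, 0.0145 for Prtn3, 0.00736 for Ctsg and 0.0199 for Ms4a3), with Fcnb at 0.168, but that fit called 26.8% of all genes. In the library of animal 540, which matched the controls in its sex-linked genes, all 6 levels lay above both MxCre libraries. With any 1 library left out, Mpo stayed between 1.40 and 1.67, Ctsg between 1.45 and 1.77 and Prtn3 between 1.01 and 1.32, while Ms4a3 ran from 1.62 to 2.57, Elane from 1.09 to 2.15 and Fcnb from 0.55 to 1.76.

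**Figure D3:**
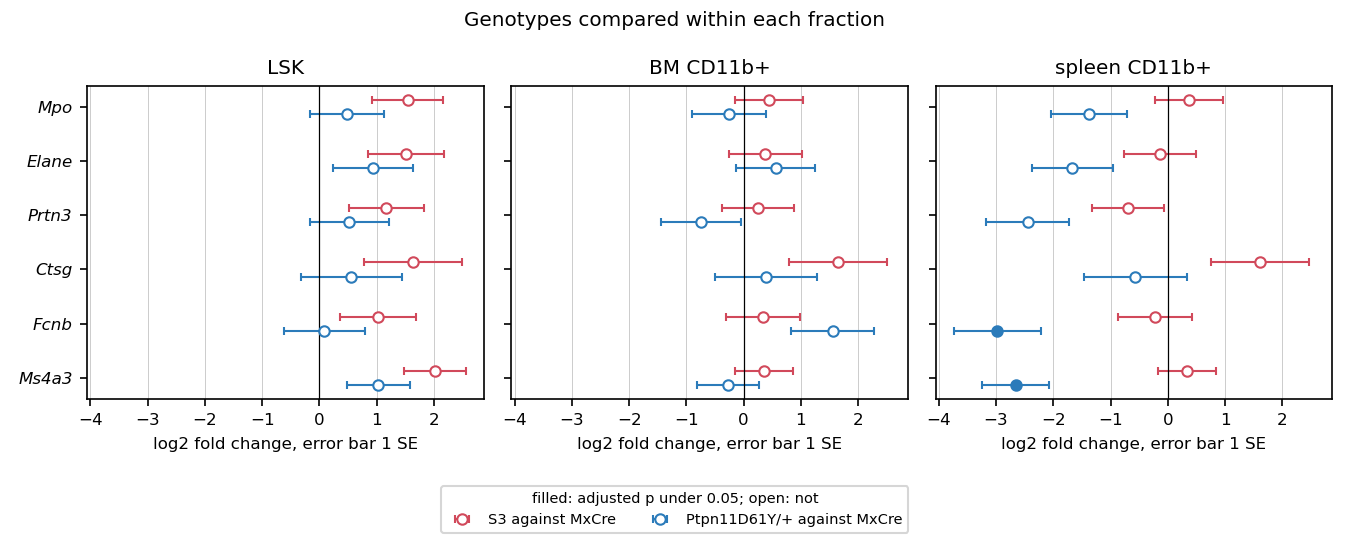
Log2 fold change of each gene in S3 (red) and Ptpn11D61Y/+ (blue) over MxCre in LSK, BM CD11b+ and spleen CD11b+, with bars of 1 SE, filled where the adjusted p was under 0.05. All red LSK points lie right of 0 without passing the threshold, and the only filled points are the blue ones of Fcnb and Ms4a3 in spleen.

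In BM CD11b+ cells the S3 and MxCre ranges overlapped for all 6 genes, because the 2 MxCre libraries enclosed most of the others. Mpo had 329.98 and 1717 CPM in MxCre, 959.8 and 758 in Ptpn11D61Y/+ and 1377, 1404 and 1382 in S3. With TMM factors the S3 mice were close to each other, at 1388 ± 14.6 CPM (SD, n = 3), between the 2 MxCre values. With library size alone they had 1123, 1057 and 1634 CPM against 230 and 1237 in MxCre, so animal 640 lay above both. Prtn3 likewise had 227 and 1693 CPM in MxCre against 1308, 1299 and 828 in S3. Ms4a3 had 53.2 and 275 against 211, 187 and 231, and Elane 99.9 and 749 against 796, 304 and 558. Ctsg had 15.4 and 138 CPM in MxCre and 217, 103 and 404 in S3, the largest log2 fold change of the 6 at 1.66 ± 0.857 (SE, adjusted p = 0.360). The other 5 lay between 0.25 and 0.44, and the median was 0.37 against 0.18 over all genes.

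The test called 0 of the 6 genes and 0% of all genes in this comparison. At an unadjusted p under 0.05, edgeR also gave 0 of the 6 (3022 genes in all), and DESeq2 called 0 of the 6 and 4.93% of genes. The direction turned with single libraries. Without MxCre 1, the library rich in macrophage transcripts, the log2 fold changes were −0.30 for Mpo, −0.43 for Elane, −0.56 for Prtn3, −0.39 for Fcnb and −0.38 for Ms4a3, and Ctsg stood at 0.82. Without S3 540, Fcnb stood at −0.62. Without MxCre 2 instead, 4 of 6 were called higher in S3 (Elane, Prtn3, Ctsg and Ms4a3), in a fit that called 9.75% of all genes and in which the median of all genes lay at 0.68. The part that macrophage or precursor content plays in this was not tested.

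In spleen CD11b+ cells, 5 of the 6 genes overlapped between S3 and MxCre. Mpo had 70.5 and 59.8 CPM in MxCre and 38.9, 69.0 and 146 in S3, the highest being animal 640. Ctsg had 4.34 and 6.45 CPM in MxCre and 7.23, 6.34 and 35.7 in S3, again highest in animal 640 (log2 fold change 1.61 ± 0.860, SE, adjusted p = 0.248). With any 1 spleen library left out, the Ctsg value ran from 0.33 to 1.99. Prtn3 alone lay lower in every S3 library, with 118 and 164 CPM in MxCre and 53.1, 97.3 and 110.3 in S3 (−0.69 ± 0.623), an order that 12.9% of all genes shared. Elane, Fcnb and Ms4a3 differed by −0.14, −0.23 and 0.34. edgeR called 0 of the 6, against 4.19% of all genes, and gave 0 of them an unadjusted p under 0.05. DESeq2 called 0 of the 6 and 17.4% of genes. The spleen library of animal 640 also held the most proliferation transcripts and the most erythroid transcripts (29214 CPM) of the spleen libraries. The part of these cells in the result was not tested.

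Whether the S3 effect differed between fractions was tested as a difference of fold changes. None of the 6 passed for spleen less BM (estimates from −0.95 to −0.016; background 0%), spleen less LSK (−1.86 for Prtn3 to −0.021 for Ctsg; background 0.00511%) or BM less LSK (−1.66 for Ms4a3 to 0.029; background 0%). Ms4a3 alone had an unadjusted p under 0.05, in spleen less LSK (−1.67, adjusted p = 0.337) and in BM less LSK (−1.66, adjusted p = 0.609), and DESeq2 called 0 of the 6 in each (2.71, 4.23 and 0.721% of genes in that order). A larger S3 effect in LSK than in CD11b+ cells was therefore not detectable with these libraries.

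Ptpn11D61Y/+ against MxCre compares the 2 kinds of control. In LSK, 5 of the 6 genes lay higher in both Ptpn11D61Y/+ libraries than in both MxCre libraries, as did 28.3% of all genes. Their log2 fold changes were 1.03 for Ms4a3, 0.94 for Elane, 0.56 for Ctsg, 0.52 for Prtn3 and 0.48 for Mpo, and Fcnb overlapped at 0.09. With any 1 library left out, Ms4a3 ran from 0.63 to 1.58 and Elane from 0.50 to 1.56. edgeR called none (background 0.0614%) and gave none an unadjusted p under 0.05, and DESeq2 called 0 of the 6 and 0.527% of genes. A fit of these 4 libraries alone called Mpo, Prtn3 and Ctsg (adjusted p = 0.00686, 0.00352 and 0.0122), along with 14.2% of all genes. In BM CD11b+, Fcnb had 69.2 and 347 CPM in MxCre and 644 and 579 in Ptpn11D61Y/+. It was the only gene of the 6 to lie higher in both (1.55 ± 0.724, SE, unadjusted p = 0.0474, adjusted p = 0.218), which 38.7% of all genes did. The other 5 overlapped between −0.74 and 0.56. edgeR called 0 of the 6 and 0% of genes, and DESeq2 0 of the 6 and 9.53%. With any 1 BM library left out, Fcnb ran from 0.83 to 3.16 and Elane from −0.24 to 2.67. Both were highest without BM CD11b+ MxCre 2, where the all-gene median was 0.71.

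Spleen CD11b+ cells gave the clearest difference between the controls. Ms4a3 had 28.4 and 40.1 CPM in MxCre, 3.56 and 7.27 in Ptpn11D61Y/+ and 32.4, 40.5 and 57.0 in S3. The Ptpn11D61Y/+ libraries lay below all 5 others, and the gene was lower than in MxCre by −2.66 ± 0.583 on the log2 scale (SE, adjusted p = 0.0208). Fcnb had 113 and 166 CPM in MxCre, 13.6 and 21.7 in Ptpn11D61Y/+ and 143, 63.5 and 149 in S3, again with the Ptpn11D61Y/+ libraries below all others (−2.98 ± 0.764, SE, adjusted p = 0.0366). These 2 were the members called lower, against 3.02% of all genes. Prtn3 had 118 and 164, 10.4 and 41.1, and 53.1, 97.3 and 110.3 CPM and fell short of the threshold (−2.45 ± 0.728, SE, adjusted p = 0.0604).

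Elane (−1.67 ± 0.708, SE) and Mpo (−1.37 ± 0.657) also lay lower in both Ptpn11D61Y/+ libraries, so that 5 of 6 did, against 21.4% of all genes. Ctsg, the gene with the fewest counts, overlapped (1.69 and 5.59 CPM against 4.34 and 6.45). The median over the 6 was −2.06 against 0.20 over all genes. DESeq2 called 3 of the 6 and 17.3% of genes. The calls rested on single libraries, and each omission leaves 1 library in a group. The call of Ms4a3 was lost without MxCre 2 or Ptpn11D61Y/+ 1 (−2.38 and −2.21). The call of Fcnb was lost under every omission (−2.66 and −2.65 without these 2, −3.23 and −3.35 without MxCre 1 or Ptpn11D61Y/+ 2). The 2 Ptpn11D61Y/+ spleen libraries held 2720.04 and 6854 CPM of mature neutrophil genes against 44885 and 103744 in MxCre. They held 3419 and 5004 CPM of secondary granule genes against 35121 and 49016, and 1624 and 2162 CPM of B cell genes against 286 and 119. Of the 8 B cell genes 2 were called higher, among them Cd79b, which encodes a chain of the B cell receptor complex, by 2.75 on the log2 scale (adjusted p = 0.0474), where 2.1% of all genes were higher and none without Ptpn11D61Y/+ 1. How far the make-up of the fraction accounts for the low granule gene levels was not tested.

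The second question is how the fractions compare within a genotype. Between BM and spleen CD11b+ cells, Mpo was called lower in spleen in every genotype, Prtn3 in S3 as well, and all 6 genes in Ptpn11D61Y/+, while differences between genotypes in this contrast were not tested beyond S3 and MxCre. In S3 mice, Mpo had 1377, 1404 and 1382 CPM in BM and 38.9, 69.0 and 146 in spleen. The groups were far apart, and the log2 fold change was −4.04 ± 0.595 (SE, adjusted p = 0.0269). Prtn3 had 1308, 1299 and 828 CPM in BM and 53.1, 97.3 and 110.3 in spleen (−3.72 ± 0.628, SE, adjusted p = 0.0443), also without overlap. These were 2 of the 11 genes that passed in this comparison (0.0563% of all genes), 6 of them lower (0.0307%), and by unadjusted p Mpo ranked 3 and Prtn3 ranked 9 of 19555.

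Elane (−3.39), Ctsg (−3.88) and Ms4a3 (−2.28) were also lower in every S3 spleen library than in every BM library, with adjusted p of 0.0736, 0.0998 and 0.0914. Such separation held for 5 of the 6 and for 2.73% of all genes. Fcnb overlapped, with 518, 115 and 156 CPM in BM and 143, 63.5 and 149 in spleen (−1.15 ± 0.586). Both fractions carry the numbers of the same 3 animals, and with the animal as a block the fold changes were −4.23 for Mpo and −3.76 for Prtn3 while the calls were lost (adjusted p = 0.117 and 0.203 in the blocked fit, which called 0.00511% of genes). DESeq2 called 5 of 6 and 2.82% of genes. The calls also rested on single libraries: without BM 640 or without spleen 640, 5 of the 6 passed (2.39 and 1.16% of genes called). Without any 1 of the other 4 libraries none of the 6 did. Of all genes, 0.0153% were called there without BM 540 or BM 815, and 0% without spleen 540 or spleen 815. Mpo stayed between −4.69 and −3.69 and Prtn3 between −3.93 and −3.46 over all 6 omissions. Without the 3 libraries that held both Xist and Y-linked counts none passed either (0% of genes called). Levels of other cell type genes in this contrast were as follows. Macrophage genes, none of which was called, summed to 1900, 2146 and 3915 CPM in S3 BM and 9415, 9827 and 6391 in spleen, and proliferation genes, also with none called, to 4437, 4183 and 1994 against 1376, 1212 and 3684, the sum being higher in spleen for animal 640. The basophil, mast cell and eosinophil genes, led by Prg2, summed to 2804, 3060.2 and 1161 CPM in BM and 467, 537 and 229.6 in spleen, lower in each animal with none called. Erythroid genes summed to 68308, 125001 and 14794 against 14611, 15924 and 29214, and mature neutrophil genes to 71332, 68787 and 14097 against 57149, 25337 and 21229, both higher in spleen for animal 640 and with none called. Their part in the result was not tested.

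In Ptpn11D61Y/+ mice all 6 genes were called lower in spleen, against 2.46% of all genes, and all 6 lay below in every library, against 31.2%. Fcnb had 644 and 579 CPM in BM and 13.6 and 21.7 in spleen (−5.11 ± 0.843, SE, adjusted p = 0.0108). Mpo had 959.8 and 758 against 13.4 and 36.8 (−5.10 ± 0.767, adjusted p = 0.00884). Ms4a3 had 139.7 and 132 against 3.56 and 7.27 (−4.65 ± 0.637, adjusted p = 0.00578). The separation was wide for each of the 3. Elane, Ctsg and Prtn3 changed by −5.10, −4.79 and −4.48 (adjusted p = 0.0108, 0.0254 and 0.0110). Without any 1 library the fold changes stayed at −3.84 or lower, while calls were lost in each of these fits, which leave 1 library in a group. The calls of the 6 genes were lost without spleen Ptpn11D61Y/+ 1, with Ms4a3 at −4.26 and Mpo at −4.58. Mpo was also lost without BM 1 (−4.92).

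Genes of other cell types were called in the same Ptpn11D61Y/+ contrast, 5 of 10 erythroid, 3 of 10 mature neutrophil and 2 of 15 proliferation genes as lower in spleen (2.46% of all genes) and 1 of 10 macrophage genes and 1 of 10 basophil, mast cell and eosinophil genes (Gata2) as higher (1.23%). Mature neutrophil genes summed to 74603 and 54539 CPM in BM and 2720.04 and 6854 in spleen, and erythroid genes, led by Hbb-bs, to 161837 and 162218 against 5165 and 1150.4. Macrophage genes summed to 529 and 573 CPM in BM and 8893 and 3466 in spleen. Proliferation genes summed to 4934 and 4226 CPM in BM and 1000.1 and 872 in spleen. The part of these levels in the lower granule gene levels was not tested.

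In MxCre mice Mpo alone passed, at −3.97 ± 0.727 (SE, adjusted p = 0.0313), against 0.46% of all genes called lower. Elane, Prtn3, Ctsg and Ms4a3 were also below BM in both spleen libraries, a separation that 5 of the 6 and 15% of all genes showed, with log2 fold changes of −2.87, −2.77, −3.83 and −2.26 and adjusted p from 0.0681 to 0.0764. Fcnb overlapped at −0.58. The calls turned on single libraries. Without BM MxCre 1, 5 of the 6 passed (5.5% of genes called), without BM MxCre 2 or either spleen library none did (Mpo at −2.33, −4.09 and −3.86), and DESeq2 with all libraries called 5 (10.8% of genes). Erythroid genes summed to 50055 and 223848 CPM in MxCre BM against 3424 and 1152 in spleen, with 5 of 10 called lower. The basophil, mast cell and eosinophil genes summed to 813 and 1499 CPM against 156 and 52.5, with Prg2 alone called (−4.06, adjusted p = 0.0388). The part of these levels was not tested.

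**Figure D4:**
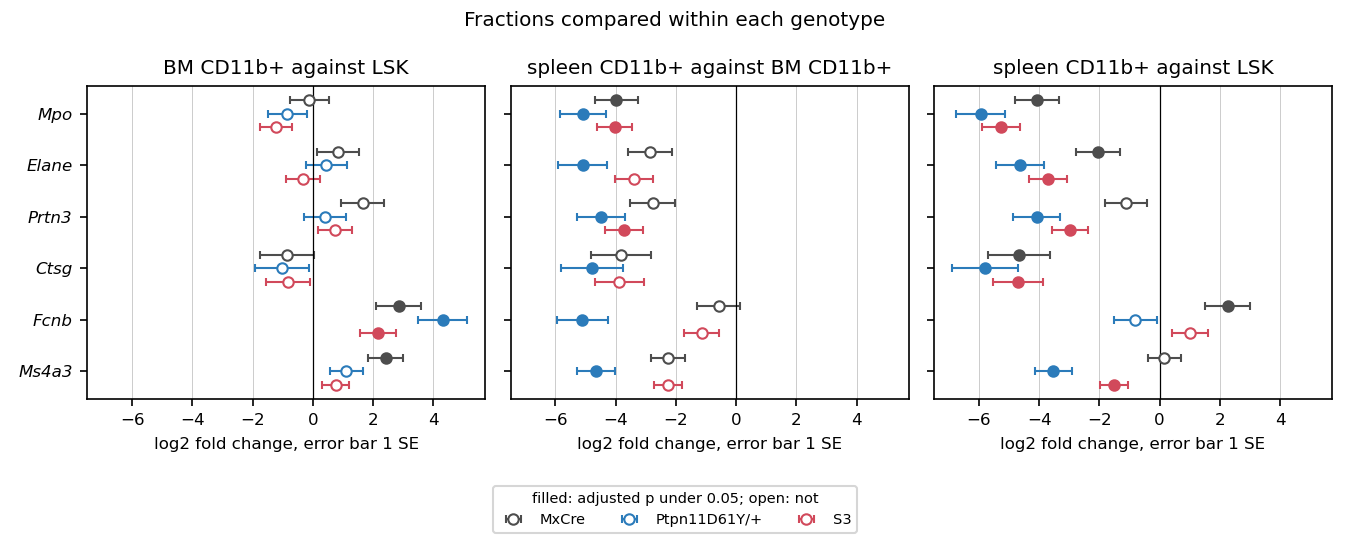
Log2 fold change of each gene between fractions within MxCre (grey), Ptpn11D61Y/+ (blue) and S3 (red), in 3 panels for BM CD11b+ against LSK, spleen CD11b+ against BM CD11b+ and spleen CD11b+ against LSK, with bars of 1 SE, filled where the adjusted p was under 0.05. Fcnb lies to the right of 0 in BM CD11b+ against LSK in all 3 genotypes (2.85, 4.31 and 2.16), and Mpo, Elane, Prtn3, Ctsg and Ms4a3 lie to the left of 0 in spleen against BM.

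Between BM CD11b+ and LSK cells, Fcnb was called higher in all 3 genotypes. It was the only 1 of the 6 called in Ptpn11D61Y/+ and S3, a share near that of all genes called higher (10.8 and 14.4%). In S3 it had 47.0, 69.6 and 60.4 CPM in LSK and 518, 115 and 156 in BM CD11b+ (2.16 ± 0.603, SE, adjusted p = 0.0164). In Ptpn11D61Y/+ it rose by 4.31 ± 0.811 (SE, adjusted p = 0.00199) and in MxCre by 2.85 ± 0.759 (adjusted p = 0.0107). The ranges were apart in each genotype, an order that 28, 40.8 and 18.5% of all genes shared in MxCre, Ptpn11D61Y/+ and S3. In S3 the call was lost with the animal as a block (1.80, adjusted p = 0.106, with 29.2% of genes called in that fit). It was also lost without the 3 libraries with Xist and Y-linked counts, and without BM 540 (1.20), LSK 540 (2.01) or LSK 768 (2.17). Ms4a3 was called higher in MxCre (2.42 ± 0.575, SE, adjusted p = 0.00614), and its values of 1.12 in Ptpn11D61Y/+ and 0.76 in S3 did not pass. In MxCre both calls were lost without BM 2 (Fcnb at 1.23, Ms4a3 at 0.77, with Ctsg then called lower at −3.19 and 33.5% of genes called) and without LSK 2 (Fcnb at 2.34), while without BM 1 Prtn3 was called as well (2.45, with 15% of genes called). The share of all genes called higher in MxCre was 16.6%.

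Mpo, Elane, Prtn3 and Ctsg did not pass in any genotype between BM CD11b+ and LSK. Mpo ranged from −1.21 (S3, adjusted p = 0.0997) to −0.11 (MxCre). Ctsg ranged from −1.01 to −0.82, Elane from −0.31 to 0.83 and Prtn3 from 0.40 to 1.66 (MxCre, adjusted p = 0.0743). In S3 the Mpo ranges were apart, with LSK at 2624 to 3819 CPM and BM CD11b+ at 1377 to 1404, an order that 30.5% of all genes shared. In fits of only the groups compared, 5 of the 6 passed in Ptpn11D61Y/+, where 71.3% of all genes did, and 3 in S3, where 23.1% did. The Mpo medians of LSK and BM CD11b+ libraries were 1567 and 1377 CPM with TMM factors, although LSK cells are sorted to lack lineage markers. With library size alone they lay further apart, at 2341 and 1057.

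Spleen CD11b+ cells were called lower than LSK cells for Mpo, Ctsg and Elane in all 3 genotypes, and for Prtn3 and Ms4a3 in S3 and Ptpn11D61Y/+. In S3, Mpo changed by −5.25 ± 0.630 on the log2 scale (SE, adjusted p = 5.2e-05), Ctsg by −4.70, Elane by −3.70, Prtn3 by −2.98 and Ms4a3 by −1.51 (adjusted p = 0.0225), so 5 of 6 passed as lower against 11.6% of all genes. Fcnb lay at 1.01 and did not pass. With the animal as a block 4 passed, Ms4a3 being lost (adjusted p = 0.0520, with 28.5% of genes called in that fit). Ms4a3 was also lost without LSK 540, LSK 768, spleen 540 or spleen 815, at −1.50, −1.44, −1.34 and −1.47. In Ptpn11D61Y/+ the same 5 fell, with −5.94 for Mpo, −5.80 for Ctsg, −4.64 for Elane, −4.08 for Prtn3 and −3.53 for Ms4a3, against 7.74% of genes, with Fcnb at −0.80. In MxCre, Mpo, Ctsg and Elane were lower (−4.08, −4.68 and −2.04, with 22.4% of genes lower), and Fcnb rose by 2.27 ± 0.742 (SE, adjusted p = 0.0242; 19.2% higher). Prtn3 at −1.11 and Ms4a3 at 0.16 did not pass there. Elane was lost without LSK MxCre 1, spleen 1 or spleen 2 (between −2.12 and −1.48) and Fcnb without LSK 1, LSK 2 or spleen 2 (2.92, 1.71 and 1.94), while Mpo and Ctsg passed without any 1 of the 4.

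Within LSK cells the 6 genes varied together, with pairwise Pearson correlations of log2 CPM from 0.812 to 0.997 over 7 libraries. Over the 14 CD11b+ libraries the correlations ran from 0.741 to 0.972. Over all 21 they ran from 0.183 to 0.972, the lowest being those of Fcnb with Ctsg (0.183) and Mpo (0.188). These libraries share genotype and fraction groups, so the correlations are descriptions.

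The genes whose log2 CPM followed the mean of the 6 most closely were taken from the 8760 genes that averaged 3 or more on that scale. Over all 21 libraries they were Pxylp1 (r = 0.965), Tm7sf3 (0.937), Cdca5 (0.904), Sapcd2 (0.900), Prss57 (0.893), Traip (0.890), Kifc5b (0.888), Shcbp1 (0.888), Cdc25a (0.882) and Slc35c1 (0.882). Cdca5, which encodes sororin of the cohesin complex, and Cdc25a, a cell cycle phosphatase, act in dividing cells, and Prss57 is a further serine protease of azurophil granules. Over the 14 CD11b+ libraries the list was led by Pxylp1 (0.972), Gpc1 (0.945), Plscr3 (0.942), Entpd5 (0.937) and Tm7sf3 (0.935), and Myb, a transcription factor of immature blood cells, stood at 0.921. Against the mean of all 6, Fcnb itself reached 0.561 over 21 libraries and 0.866 over the 14.

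Other genes of the granulocyte programme were read from lists of fixed membership. Their calls have the limits of the comparison they come from. Without spleen Ptpn11D61Y/+ 1, no gene at all was called for Ptpn11D61Y/+ against MxCre in spleen or for spleen against BM in Ptpn11D61Y/+, so every list call there is lost without that library. For S3 against MxCre in spleen no gene was called with pooled controls or with only the groups compared in the fit. Of 12 further azurophil granule and processing genes, none was called between S3 and MxCre in LSK (10 positive, median 0.38), where 0.0307% of all genes were. In BM CD11b+ none was called either (7 positive, median 0.19), with 0% of all genes called. In spleen CD11b+ Srgn, the proteoglycan that holds granule proteins, was lower by −3.16 (adjusted p = 0.00966), as 2.67% of all genes were. Between spleen and BM CD11b+ none of the 12 was called in MxCre or S3 (median −0.058 in S3), where 0.915 and 0.0563% of all genes were. Prss57 and Serpinb1a, an inhibitor of the granule proteases, were lower in Ptpn11D61Y/+ (−3.95 and −3.14, adjusted p = 0.0121 and 0.0110, with 2.46% of all genes lower). From LSK to BM CD11b+, 6 of 12 were higher in MxCre (16.6% of all genes) and 5 of 12 in Ptpn11D61Y/+ (10.8%) and in S3 (14.4%), among them the lysozyme gene Lyz2 (3.11, 6.70 and 4.05) and Ctsc (1.59, 1.62 and 2.14), whose protease activates the granule proteases.

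Prss57 was the nearest to the 6 in this list. Its level was 21.9 and 17.3 CPM in MxCre LSK, 23.6 and 24.4 in Ptpn11D61Y/+ LSK and 35.5, 29.6 and 36.8 in S3 LSK. Spleen CD11b+ libraries held 13.7 and 18.0 CPM in MxCre, 0.683 and 3.72 in Ptpn11D61Y/+ and 8.31, 14.1 and 7.43 in S3. The Ptpn11D61Y/+ spleen libraries were thus the lowest for Prss57 as well (−2.85 on the log2 scale over MxCre, adjusted p = 0.0307, a call lost without Ptpn11D61Y/+ 1). Of 11 other early neutrophil precursor genes, none was called between S3 and MxCre in LSK (9 positive, median 0.76), where 0.0307% of all genes were. In Ptpn11D61Y/+ spleen 4 were lower than in MxCre, led by Trem3 (−3.66, adjusted p = 0.0105), against 3.02% of all genes.

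Among 12 regulators of the promyelocyte programme, none was called between S3 and MxCre in LSK or BM CD11b+, where 0.0307 and 0% of all genes were. In spleen CD11b+ Cebpb (−4.15), the granulocyte growth factor receptor gene Csf3r (−3.49) and Runx1 (−1.05) were lower, against 2.67% of all genes. Myb was lower in spleen than in BM CD11b+ cells in MxCre (−3.63, adjusted p = 0.0334) and Ptpn11D61Y/+ (−3.82, adjusted p = 0.0110), and its value of −2.37 in S3 did not pass (adjusted p = 0.109). Cebpe, which drives the step from promyelocyte to myelocyte, was higher in BM CD11b+ than in LSK cells by 4.77, 5.07 and 3.68 in MxCre, Ptpn11D61Y/+ and S3.

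Secondary granule genes follow the primary ones in maturation. All 10 were higher in BM CD11b+ than in LSK cells in each genotype (against 16.6, 10.8 and 14.4% of all genes), with medians of 4.55, 9.63 and 6.35 in MxCre, Ptpn11D61Y/+ and S3, whereas Mpo, Elane, Prtn3 and Ctsg were not called there. Between spleen and BM CD11b+ in S3, none of the 10 was called, and their median was −0.48 against −3.56 for the 6 primary granule genes. In Ptpn11D61Y/+ mice 9 of the 10 were lower in spleen (median −4.40), against 2.46% of all genes, and none without spleen Ptpn11D61Y/+ 1. Within LSK the 2 MxCre libraries held 1975 and 1692 CPM of secondary granule genes, more than Ptpn11D61Y/+ (149 and 123) and S3 (391, 1011 and 555). The members called lower were Mmp8 in S3 (−5.33, adjusted p = 0.0240, with 0.0256% of all genes lower) and 5 of 10 in Ptpn11D61Y/+ (0.0614% of all genes called), with Ltf at −7.41 and Lcn2 at −5.50. No gene at all was called for S3 in LSK without LSK S3 540 or 768, nor for Ptpn11D61Y/+ without either of its LSK libraries, so these calls are lost there.

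Of the lists for other cell types in LSK, few members passed, as few genes did in all (0.0307% for S3 and 0.0614% for Ptpn11D61Y/+ against MxCre). Erythroid genes summed to 1554 and 849 CPM in MxCre against 63.3 to 152 in the other 5 libraries, with Hbb-bs called lower in S3 (−5.13, adjusted p = 0.0356). The 10 basophil, mast cell and eosinophil genes summed to 1739, 1076 and 1287 CPM in S3, led by Prss34, against 295 and 266 in MxCre, with 10 of 10 positive and none called (median 3.24). All 15 proliferation genes were positive in S3 LSK with none called (median 0.48). Stem and progenitor genes summed to 1568, 1440.4 and 1355 CPM in S3 LSK against 1956 and 2021 in MxCre, and none of the 11 was called. The part of these levels in the higher primary granule levels of S3 LSK was not tested.

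**Figure D5:**
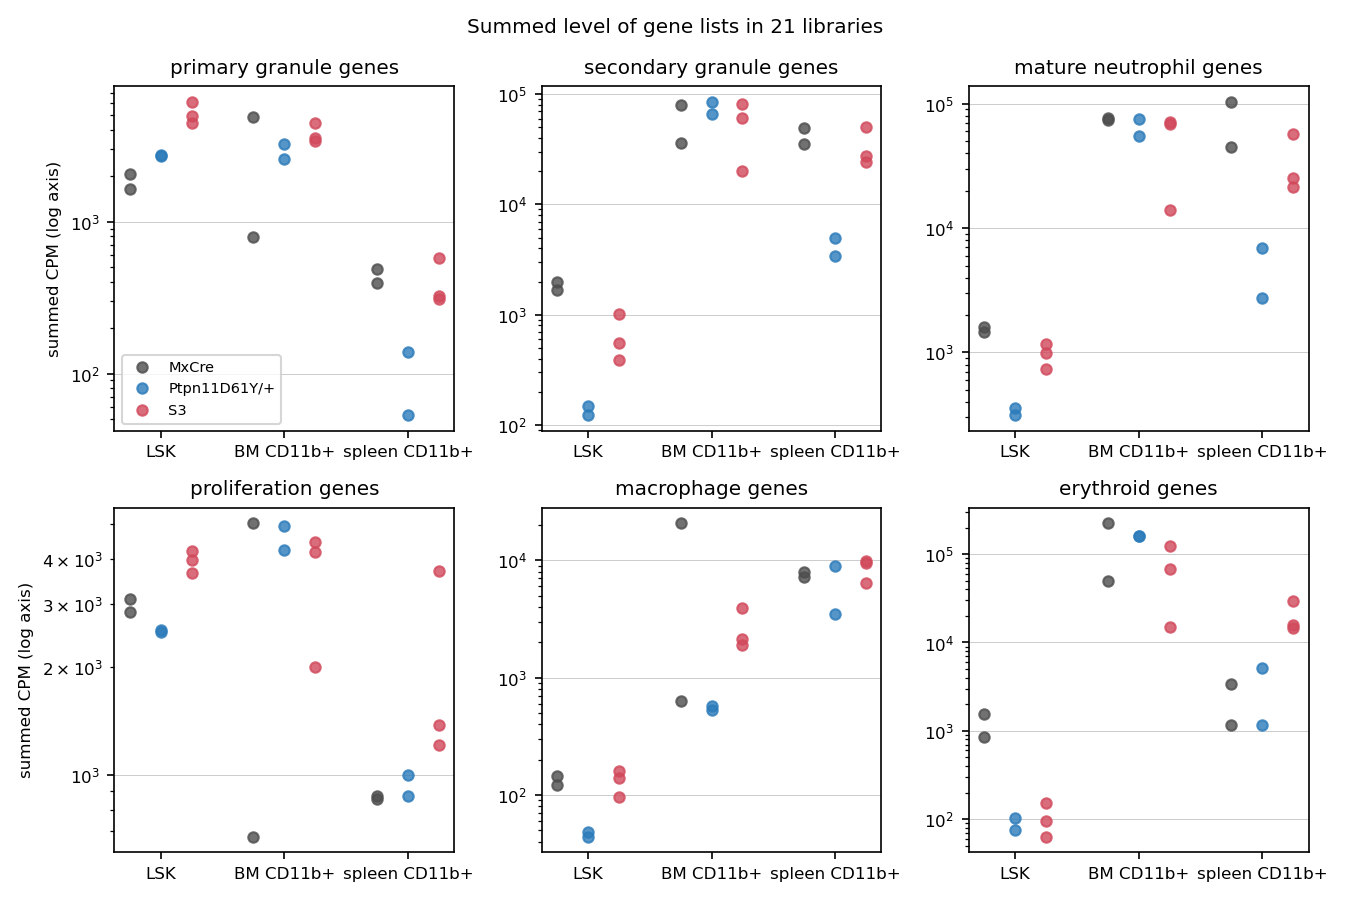
Summed CPM (log axes, each panel with its own range) of the 6 primary granule genes and of 5 marker lists, 1 point per library, in grey for MxCre, blue for Ptpn11D61Y/+ and red for S3. In LSK the primary granule sum is highest in S3 (4441 to 6162 CPM) while the secondary granule sum is highest in MxCre (1692 and 1975 CPM), and in BM CD11b+ a single MxCre library with 795 CPM of primary granule genes holds 20682 CPM of macrophage genes.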

How the data were processed

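RNA was extracted with a micro-scale kit, and stranded polyA libraries were sequenced as 100 bp paired-end reads. The authors deposited raw counts of reads per Ensembl gene for each of the 21 libraries. The submitters' processing notes name bcl2fastq 2.20.0.422, FastQC 0.11.9, Trim Galore 0.6.5, STAR 2.5.3a and the mm10 (GRCm38) genome. The counting program, the annotation release and the use of strand are not given in the sources used here. The study's methods speak of 3 mice per genotype, and 2 libraries per control group were analysed here.

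The 6 genes and all gene lists were chosen with earlier results of these data known. Symbols were found for 45143 of 45706 gene IDs. Genes were filtered with filterByExpr (minimum count 10, minimum total 15), which kept 19555 genes and 99.99% of counts. All 21 libraries entered 1 quasi-likelihood fit of edgeR 4.0.16 (R 4.3.3, robust, TMM factors, 9 groups, 12 residual degrees of freedom), with Benjamini-Hochberg adjustment over all genes and a threshold of 0.05. The SE is the log2 fold change divided by the square root of F. Log2 CPM used a prior count of 2. In all, 18 comparisons gave 108 tests of the 6 genes. Named genes were the 6 themselves, the genes of the lists that passed, and the 10 genes most like the mean of the 6 by Pearson's r. The fit was tested on simulated counts, and the outcome is not reported here. Alternatives were DESeq2 1.42.0, RLE factors, library size alone, no filter, pooled controls, a replicate block, only the groups compared, and each library left out. Leaving out the 3 libraries with both Xist and Y-linked counts was added after seeing the data. Same-numbered S3 libraries carry the same animal number in the labels, which is where the pairing comes from, although the sex-linked counts of animal 540 differed between fractions. Their deviations from group means correlated at 0.108, 0.407 and 0.333 between BM and spleen and at −0.096 to 0.086 between LSK and the others. The values of some list members are not reported here.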

Additional observations from a re-analysis of the deposited data

How the results depend on the processing

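The number of the 6 genes called moved under several alternatives. With only the groups compared in the fit it went from 0 to 5 for S3 against MxCre in LSK (26.8% of all genes called). For Ptpn11D61Y/+ against MxCre in LSK it went from 0 to 3 (14.2%). For BM CD11b+ against LSK it went from 1 to 5 in Ptpn11D61Y/+ (71.3%), from 1 to 3 in S3 (23.1%) and to 0 in MxCre (28%). For spleen against BM it went to 0 in MxCre and in S3, where 0% of all genes were called in each. With DESeq2 it was 1 for S3 in LSK (0.655% of all genes called) and 5 for spleen against BM in both MxCre (10.8%) and S3 (2.82%). With library size alone it was 1 for Ptpn11D61Y/+ against MxCre in spleen, 0 for BM against LSK in MxCre and 0 for spleen against BM in S3. The shares of all genes called with library size alone are not given here. Without the 3 libraries with both Xist and Y-linked counts it was 0 in S3 for BM against LSK (19.9% of all genes called) and for spleen against BM (0%). It also moved for S3 and Ptpn11D61Y/+ against MxCre in BM, where this omission leaves 1 MxCre library. The cause of each move was not tested.

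With the replicate block the count was 0 for BM against LSK in S3 and 0 for spleen against BM in S3 and MxCre (Mpo in MxCre −3.74, adjusted p = 0.0931). It was 2 for spleen against LSK in MxCre, where the calls of Elane and Fcnb were lost (adjusted p = 0.0527 and 0.0535). Beside these and Ms4a3 for spleen against LSK in S3, the block changed no other call of the 6 genes. Control numbers share only a number, with correlations of deviations from −0.035 to 0.059 in MxCre and −0.173 to 0.058 in Ptpn11D61Y/+. With the BM Ptpn11D61Y/+ numbers crossed, the block called 1 of the 6 for BM against LSK and 6 for spleen against BM (427 genes, against 325 uncrossed and 722 without the block).

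With each library left out in turn, the count ranged from 0 to 4 for S3 and 0 to 2 for Ptpn11D61Y/+ against MxCre in BM, 0 to 1 for Ptpn11D61Y/+ against MxCre in spleen, 0 to 3 for BM against LSK in MxCre and 0 to 1 in S3, 2 to 3 for spleen against LSK in MxCre and 4 to 5 in S3, and 0 to 5 for spleen against BM in each genotype. The genes called in all ranged over the same fits from 0 to 2040 for S3 and 0 to 2852 for Ptpn11D61Y/+ against MxCre in BM, 0 to 610 for Ptpn11D61Y/+ in spleen, 2863 to 7002 and 2954 to 7175 for BM against LSK in MxCre and S3, 4032 to 6069 and 3006 to 6679 for spleen against LSK in MxCre and S3, and 1 to 1144, 0 to 69 and 0 to 463 for spleen against BM in MxCre, Ptpn11D61Y/+ and S3. A lone control library was assumed to vary like the other groups. Directions turned as follows over these omissions. S3 against MxCre in BM ran from −0.30 to 2.09 for Mpo, −0.43 to 2.48 for Elane, −0.56 to 2.34 for Prtn3, −0.62 to 1.94 for Fcnb and −0.38 to 1.99 for Ms4a3. In spleen it ran from −0.27 to 0.72 for Mpo, −0.50 to 0.080 for Elane and −0.47 to 0.092 for Fcnb. Ptpn11D61Y/+ against MxCre ran from −0.40 to 0.81 for Fcnb in LSK, −1.67 to 0.080 for Ctsg in spleen, and in BM from −0.98 to 1.40 for Mpo, −0.24 to 2.67 for Elane, −1.54 to 1.36 for Prtn3, −0.44 to 2.73 for Ctsg and −1.002 to 1.37 for Ms4a3. In MxCre, BM against LSK ran from −1.77 to 0.61 for Mpo, −1.29 to 1.62 for Elane and −0.45 to 2.45 for Prtn3, spleen against LSK from −0.31 to 0.64 for Ms4a3, and spleen against BM from −1.32 to 1.02 for Fcnb. The difference of the S3 effect, spleen less BM, ran from −1.70 to 0.69 for Mpo, −2.61 to 0.30 for Elane, −2.36 to 0.80 for Ctsg, −2.16 to 0.39 for Fcnb and −1.64 to 0.73 for Ms4a3. Spleen less LSK ran from −1.30 to 0.36 for Ctsg, and BM less LSK from −1.85 to 0.54 for Mpo, −1.95 to 0.96 for Elane, −1.73 to 1.17 for Prtn3, −0.82 to 2.35 for Ctsg and −1.65 to 0.91 for Fcnb.

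Other settings turned values that did not pass. With pooled controls, S3 stood at −0.63 for Fcnb in BM and at 0.46 for Elane, 0.056 for Prtn3 and 0.59 for Fcnb in spleen. With library size alone, under which the all-gene median went from −0.28 to −1.34 for BM against LSK in MxCre and from 0.20 to 0.84 for Ptpn11D61Y/+ in spleen, Elane (0.34) and Fcnb (0.28) for S3 in spleen, Ctsg (0.037) for Ptpn11D61Y/+ in spleen, Elane for BM against LSK in MxCre (−0.22), Elane and Prtn3 there in Ptpn11D61Y/+ (−0.44 and −0.50), Ms4a3 for spleen against LSK in MxCre (−1.01, and −0.14 with only the groups compared), and the differences of spleen less BM for Mpo (0.085), Ctsg (0.055) and Ms4a3 (0.10) turned. The difference of spleen less LSK for Ctsg, reported as −0.021, was 0.066 with RLE factors and with DESeq2, 0.66 with library size alone, 0.010 with no filter, 0.12 with only the groups compared and 0.34 without the 3 libraries with both Xist and Y-linked counts, and BM less LSK for Ctsg was −0.079 with the block. Without the same 3 libraries, Ptpn11D61Y/+ in BM stood at 1.40 for Mpo, 1.36 for Prtn3 and 1.37 for Ms4a3, S3 in spleen at 0.094 for Elane, BM against LSK in MxCre at −1.29 for Elane and −0.45 for Prtn3, spleen against BM in MxCre at 1.02 for Fcnb, and BM less LSK at 0.54 for Mpo, 0.60 for Elane and 1.06 for Prtn3.

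Counts over all genes moved more than 1.5 times as well. S3 against MxCre gave 6 genes in LSK (4700 with only the groups compared, 128 with DESeq2), 0 in BM (965 with DESeq2) and 819 in spleen (0 with pooled controls or only the groups compared, 3409 with DESeq2). Spleen against BM in S3 gave 11 genes (551 with DESeq2, 1 with the block, 0 with only the groups compared). The lowest count of any of the 6 genes in any library was 104.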

Other observations

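In spleen against BM CD11b+ cells of S3 mice, 11 of 19555 genes passed the adjusted threshold in edgeR's quasi-likelihood test, and the 9 beside Mpo and Prtn3 were named after their values were seen. Lower in spleen were Igfbp4 (−2.48 on the log2 scale), which binds insulin-like growth factors, the protease gene Ctsk (−5.76), the deiodinase gene Dio2 (−3.59) and Hoxa9 (−3.35), a homeobox gene of progenitor cells. Higher were the nuclease gene Dnase1l3 (6.83), the phospholipase gene Pla2g2d (7.83), the cyclin D1 gene Ccnd1 (2.82), Arhgap6 (2.49) and Procr (4.46), the endothelial protein C receptor gene. Several levels were very low in S3, with Hoxa9 at 0.121 to 0.424 CPM in spleen and Ctsk and Dio2 down to 0.301 there. In S3 BM, Pla2g2d had 0.249 to 0.835 CPM, Procr 0.158 to 0.728 and Arhgap6 0.770 to 1.86. Within S3 spleen, Pla2g2d ran from 4.05 to 224 CPM and Dnase1l3 from 12.0 to 410. In MxCre the same contrast gave −2.67 for Igfbp4, −4.88 for Ctsk, −9.62 for Hoxa9, 2.76 for Ccnd1 and 3.00 for Arhgap6, which passed, as did 0.915% of all genes. It gave −2.03 for Dio2, 3.45 for Dnase1l3, 3.24 for Pla2g2d and 3.08 for Procr, which did not pass. In Ptpn11D61Y/+ 8 of the 9 passed, against 3.69% of all genes, with Hoxa9 at −1.46 (adjusted p = 0.269) as the exception. Levels of these genes in MxCre and Ptpn11D61Y/+ are not given here. The S3 calls share the limits given for Mpo and Prtn3, since with the animal as a block 1 gene passed in all. In MxCre 1 gene in all passed with the replicate block, and in Ptpn11D61Y/+ none did without spleen library 1.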
